A study of Mus musculus with 12 samples.

Results

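The transcripts that differentiated wild-type (WT) neurospheres expressed at baseline were described from the WT channel of 4 Agilent arrays read in 2 colors, out of 12 arrays with 24 channels in the series. Each of these 4 arrays held WT RNA in 1 channel and RNA of untreated APPswe/PS1dE9 neurospheres (APP_WT) in the other, and the APP_WT channel was not used here. WT RNA carried Cy5 (red) on replicates 1 and 2 and Cy3 (green) on replicates 3 and 4, so that a dye and a pair of replicates cannot be told apart. Genes were called detected from the WT channel alone, and members of marker lists and gene families were then counted whether detected or not. The median intensity of each spot minus the median of its local background (net intensity, in scanner units) was ranked within its array, and a probe counted as detected when the scanner software flagged it as well above background on at least 3 of the 4 arrays. Of 20887 named genes with a probe, 13041 were detected (62.4%), and of all 55681 probes, 25205 were (45.3%).

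The cells came from the telencephalon of C57BL/6 embryos at embryonic day 13. They were grown in suspension for 5 days with the mitogens EGF and FGF2, each at 20 ng/ml, which yields neurospheres (the days are those of the sample labels, and the study's methods give another number), and were then differentiated for 7 days on poly-L-lysine and laminin with both growth factors left out. No drug was given to the WT cells, and no allele or transgene was introduced into them. The methods call the replicates independent and biological, and the number and sex of the embryos behind each one are not given in the sources used here. Since the RNA is that of the whole culture, fewer cells of a type and less RNA per cell cannot be told apart.

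Neurospheres are floating clusters grown from neural progenitor cells, the dividing cells that line the ventricles of the embryonic brain. When mitogens are taken away and the clusters attach, progenitors leave the cell cycle and give rise to neurons, astrocytes and oligodendrocytes. The dorsal telencephalon forms the glutamatergic neurons of the cortex, whereas the ventral telencephalon forms GABAergic neurons and the first oligodendrocyte precursors. Microglia, endothelial cells and blood cells arise outside the neural tube and enter the brain with the vessels.

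Levels are given below as the percentile of a probe on its array (100 is the brightest of all probes), as a mean ± SD over the 4 arrays. A percentile orders spots and not transcripts, because probes differ in how well they bind their target, so an order of genes by percentile below is one of spot brightness and not of transcript amount. The percentile of the median named gene was 68.6. Genes that were detected had a median percentile of 82.0 and a median SD of 0.762 points, and those that were not had a median of 26.1 and a median SD of 8.07. Just inside the limit, 468 genes were well above background on 3 arrays by their brightest probe, with a median net intensity of 69.5. Just outside it, 637 genes were so on 2 arrays, with a median of 55.

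Spearman coefficients between arrays ran from 0.913 to 0.937 across all probes, and from 0.989 to 0.994 across detected genes, which were chosen for their signal on these same arrays. These coefficients are descriptions across genes, which are not independent replicates. The share of probes well above background was 57.0% on replicate 1 and 46.4%, 47.1% and 47.1% on replicates 2, 3 and 4, and no spot was saturated. The flag was set on both red arrays and on no green array for 141 genes, and on both green and no red array for 6. The number of arrays limits the precision of every value below.

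Markers of neural stem and radial glial cells were detected for 21 of 22 genes, with a median percentile of 90.7. Sox2, the transcription factor that keeps progenitors in their state, had net intensities of 6615, 6458.5, 3940 and 3249 on replicates 1 to 4. Its percentile was 94.5 ± 0.47 (SD, n = 4), and all 4 arrays placed it close together although the green scale is lower than the red. Fabp7, the fatty acid binding protein of radial glia, lay at 99.8 ± 0.068, and Hes5, a target of Notch signalling, at 98.5 ± 0.25. Nes, which encodes the intermediate filament nestin, lay at 93.2 ± 0.79, and Vim, which encodes vimentin, at 98.9 ± 0.32. Pax6, the regulator of dorsal progenitors, lay at 72.0 ± 0.97 by its brighter probe, and its other probe at 28.9 was not detected. Hes1, another target of Notch signalling, was the member that was not detected. Its net intensities of 63, 48, 47 and 52 lay near the limit, and the flag was set on 2 arrays.

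Genes of intermediate progenitors and neuroblasts were detected for 17 of 20. Tubb3 (beta-III-tubulin, 99.5 ± 0.10) and Dcx (doublecortin, 97.0 ± 0.59), both of young neurons, were bright on all 4 arrays. Eomes, the factor of dorsal intermediate progenitors, lay at 58.2 ± 4.2 by 1 probe and at 23.1 by the other, which was not detected, and the proneural factors Neurog2 (50.3 ± 4.6) and Neurog1 (39.0 ± 8.4) were not detected. Of 18 genes of proliferating cells, 16 were detected. Mki67, which marks cells in cycle, had net intensities of 3461, 3161, 2456 and 1548, and its percentile was 90.9 ± 1.2. The replication clamp Pcna lay at 96.5 ± 0.19.

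Of 24 pan-neuronal genes, 23 were detected, with a median percentile of 94.1. Map2, which encodes a microtubule protein of dendrites, had net intensities of 10272, 13061, 5893 and 6103, which put it at 96.5 ± 0.37. Snap25, a protein of synaptic vesicle fusion, had 9361, 12496, 4618.5 and 4048 (95.8 ± 0.41). Rbfox3, which encodes the NeuN antigen of mature neurons, had 5300, 7399, 2950 and 2940.5 (93.9 ± 0.57). On the red arrays, all 3 genes were higher on replicate 2 than on replicate 1. Cntn2, an axonal adhesion protein, was the member that was not detected, and its percentile ranged widely between arrays (55.1 ± 12.4).

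Dorsal glutamatergic genes were detected for 18 of 19 and GABAergic and ventral genes for 23 of 27. When every named probe of a gene had to be detected, these counts became 12 and 22. Slc32a1, the vesicular transporter that loads GABA, had net intensities of 18290, 19265.1, 6529.5 and 7192, a percentile of 97.3 ± 0.40. The GABA-synthesizing enzymes Gad1 (92.3 ± 0.75) and Gad2 (86.5 ± 0.92) and the ventral homeobox factor Dlx2 (95.9 ± 0.29) were well above background on all 4 arrays. Sst, the peptide somatostatin of an interneuron class, was detected as well (85.2 ± 0.60). Slc17a7, the vesicular glutamate transporter of cortical neurons, had net intensities of 83, 71, 71 and 85.5, was well above background on 3 arrays and lay at 56.9 ± 4.2. Slc17a6, the other vesicular glutamate transporter of the list, lay at 72.1 ± 2.4. Among cortical layer factors, Tbr1 (81.5 ± 1.0), Bcl11b (88.5 ± 0.55) and Neurod6 (88.2 ± 1.5) were detected. A brighter and a dimmer probe disagreed for Tbr1, and the dimmer one lay at 35.1. Reln, the secreted protein of Cajal-Retzius cells, was not detected (40.8 ± 2.1), nor were Calb1, Vip, Isl1 and Erbb4 of the GABAergic list.

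All 24 astrocyte genes were detected, and their median percentile was 93.4. Gfap, the filament protein of astrocytes, had net intensities of 34070.6, 29893.8, 16981 and 12040.5 (98.7 ± 0.21). Sparcl1, a secreted matrix protein, had 136962, 143141, 50222.9 and 38593.3 and stood among the 20 brightest named genes. Apoe (99.9 ± 0.042), the lipid carrier of astrocytes, Aldoc (99.8 ± 0.043), a glycolytic enzyme, and Aqp4 (95.1 ± 0.70), the water channel of astrocyte endfeet, lay above a percentile of 90. Gjb6, a gap junction protein, had net intensities of 120, 50.5, 93 and 117.5 (58.9 ± 9.1).

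The oligodendrocyte lineage was detected at both stages listed. Of precursor genes, 14 of 15 were detected, among them Pdgfra (92.9 ± 0.61), the receptor for the mitogen PDGF, Olig2 (90.4 ± 0.65) and Sox10 (90.9 ± 0.46). Of genes of myelinating cells, 18 of 19 were detected. Mag, an adhesion protein of the inner myelin face, had net intensities of 7163.5, 6072, 4177.5 and 2565 (94.3 ± 0.85). Mog, which lies on the outer face of myelin, had 832, 590, 454 and 320 (78.2 ± 2.0). Both replicate pairs spread here, as both genes were higher on replicate 1 than 2 and on replicate 3 than 4. Neu4, a sialidase, and Myrf, the factor that drives myelin genes, were not detected, and Myrf lay at 31.3 ± 7.9 by its 1 probe.

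**Figure D1:**
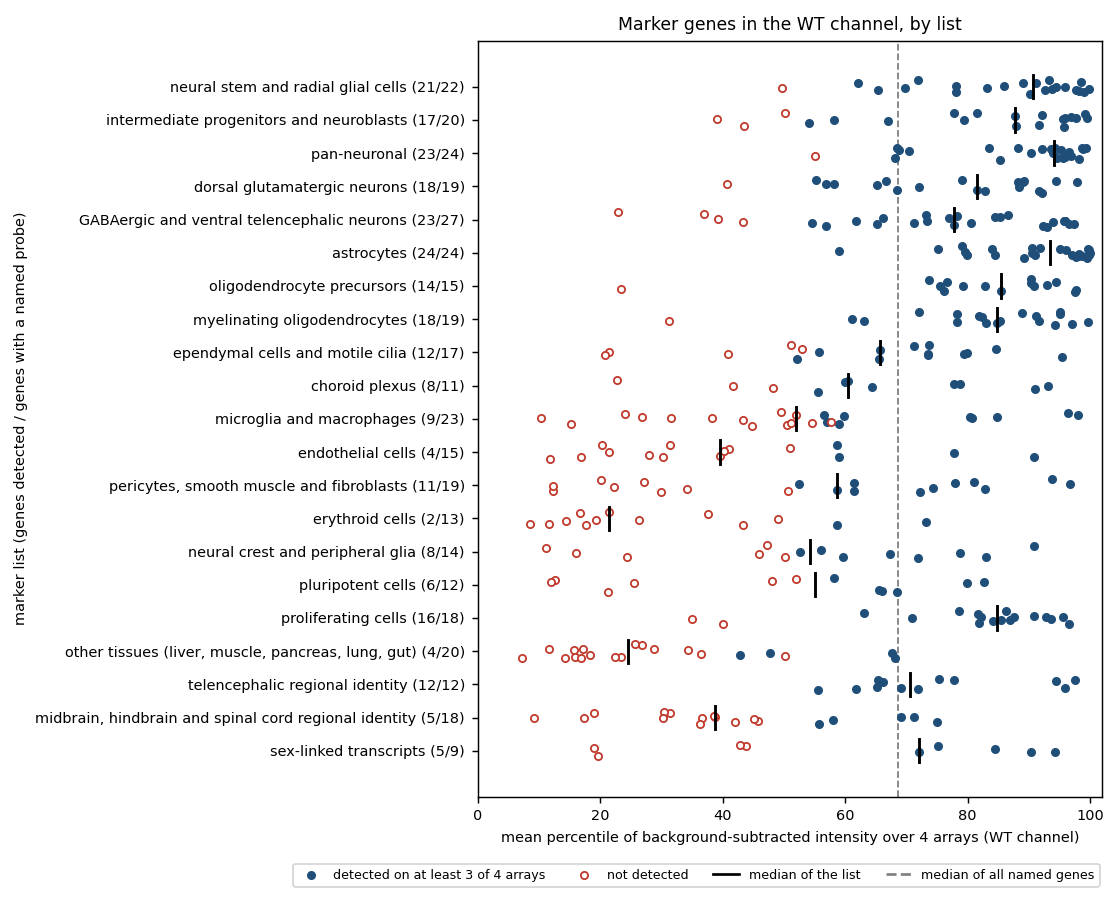
Mean percentile of background-subtracted intensity over 4 arrays (horizontal axis) for each gene of 21 marker lists (rows, with detected genes over genes with a named probe). Filled points are detected genes, open points are not, bars are list medians and the dashed line is the median of all named genes at 68.6; the medians of the radial glial, neuronal, astrocyte and oligodendrocyte lists lie to its right, and those of the ependymal, choroid plexus, endothelial, erythroid and other-tissue lists to its left.

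Ependymal and choroid plexus genes were detected at shares of 70.6% and 72.7%, near that of all named genes, and their median percentiles of 65.7 and 60.4 lay below the median named gene. Of 17 genes of ependymal cells and motile cilia, 12 were detected, with Foxj1, the factor of motile cilia, at 84.6 ± 1.5. Mcidas, which starts the making of many cilia, lay at 95.5 ± 0.23 and was the only member above 90. Hydin lay at 55.7 by 1 probe and at 29.0 by the other, which was not detected. Cfap43 (52.9) was among the 5 members not detected. Of 11 choroid plexus genes, 8 were detected, with Ttr, the thyroxine carrier made by that epithelium, at 91.0 ± 1.4. Kcnj13 lay at 55.6 by 1 probe and at 50.8 by the other, which was not detected. Kl, Kcne2 and Slc4a5 were not detected.

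The lists of microglia, endothelial cells and erythroid cells had shares of detected genes of 39.1%, 26.7% and 15.4%, and that of pericytes, smooth muscle and fibroblasts had 57.9%, near that of all named genes. Of 23 microglia and macrophage genes with a named probe, 9 were detected, and their list median was 51.9. Aif1, which encodes the Iba protein, had net intensities of 104, 126, 68 and 75.5 (59.0 ± 0.57). Csf1r, the receptor on which microglia depend, had 927, 1122.5, 471 and 437 (80.7 ± 0.80), and 1 of its 3 probes, at 39.7, was not detected. Cx3cr1, the fractalkine receptor, had 62, 96.5, 59 and 60 and was well above background on 2 arrays. P2ry12, Gpr34, Spi1, Laptm5 and Mrc1 were well above background on no array. Among the same genes, Siglech lay at 98.0 ± 0.35 and Itgam at 96.4 ± 0.34. Siglech, a lectin of microglia and plasmacytoid cells, had a bright probe and another at 15.8 that was not detected. Itgam, which encodes CD11b, had 3 probes, at 96.4, 58.1 and 49.6. C1qa, a complement subunit, had 36.5, 50, 48 and 1248, so that replicate 4 alone was far above the others. The other subunits of the same complex, C1qb (56.5 ± 2.3) and C1qc (57.1 ± 1.4), were detected on all 4 arrays. The count of 9 rested on the flag, since it became 16 with the upper limit of the negative control spots and 19 with the flag for a positive and significant signal, and 6 when every named probe of a gene had to be detected.

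Of 15 endothelial genes, 4 were detected, namely Kdr (90.8 ± 1.2), Egfl7 (77.7 ± 0.24), Slco1a4 (59.0 ± 2.3) and Pecam1 (58.6 ± 1.4). Cldn5 and Cdh5, proteins of endothelial junctions, were well above background on no array, with Cdh5 at 9, 11, 18.5 and 46.5. Of 19 genes of pericytes, smooth muscle and fibroblasts, 11 were detected, with Acta2, smooth muscle actin, at 93.8 ± 1.3 and Tagln at 96.8 ± 0.41. Of pericyte genes in that list, Pdgfrb (77.9 ± 0.49) and Higd1b (58.7 ± 2.9) were detected, and Rgs5, Kcnj8 and Abcc9 were not. Of 13 erythroid genes, only the near-identical alpha globin genes Hba-a1 (58.6 ± 3.6) and Hba-a2 (73.2 ± 1.6) were detected, and the beta globin gene Hbb-bs had 5, 5, 26 and 37. A probe that both share could not tell them apart. The count of 2 became 4 with the flag for a positive and significant signal and 5 with the limit from negative controls.

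Genes of other tissues were listed as well. Of 20 genes of liver, muscle, pancreas, lung and gut, 4 were detected (2 when the flag was needed on all 4 arrays, or with uneven spots left out), and Alb, the plasma albumin of liver, lay at 11.6 ± 6.9. Olfactory receptors were detected for 43 of 1063 genes (4.05%) and vomeronasal and taste receptors for 18 of 290 (6.21%). Among 12 genes of pluripotent cells, 6 were detected (50%, below the 62.4% of all named genes). Nanog lay at 79.8 ± 0.59 by 1 probe and at 18.7 by the other, and Pou5f1 was well above background on no array (25.5 ± 11.9). Neural crest and peripheral glia genes were detected for 8 of 14 (57.1%, near the share of all named genes), among them Sox10 of the oligodendrocyte lineage.

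**Figure D2:**
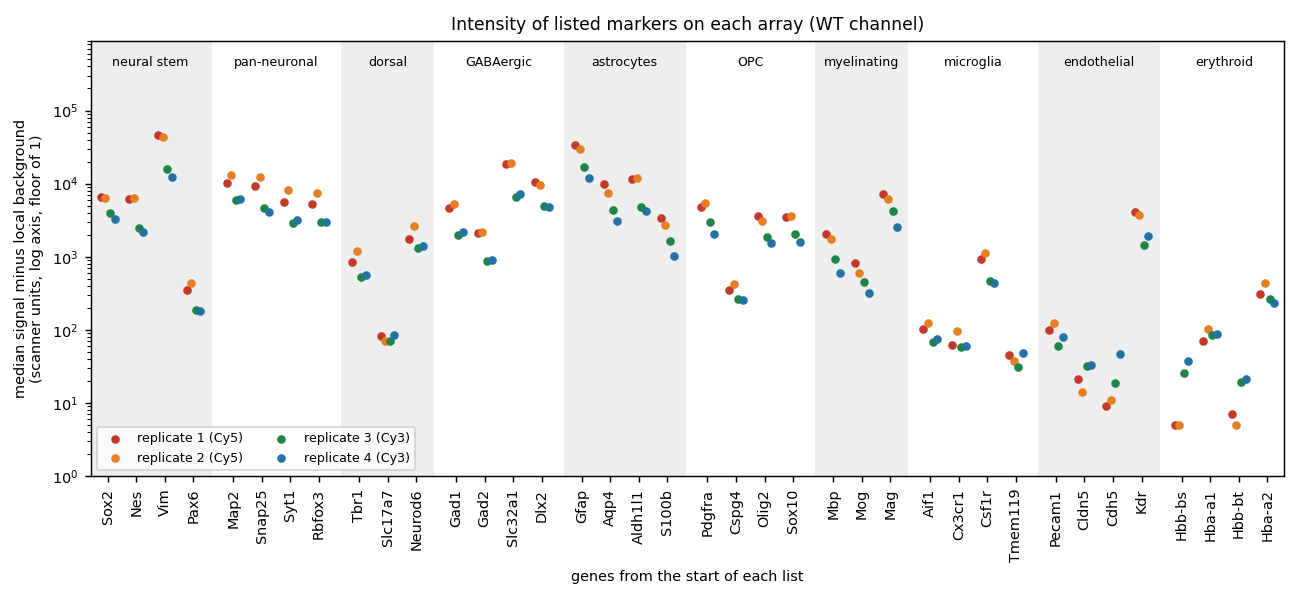
Net intensity (median signal minus local background, scanner units, log axis) on each of the 4 arrays for the genes shown of 10 marker lists, red and orange for the Cy5 arrays, green and blue for the Cy3 arrays. Map2 lies between 5893 and 13061 and Gfap between 12040.5 and 34070.6, and Cldn5 does not pass 33 nor Cdh5 46.5 on any array.

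The regional origin on the labels was compared with regional factors. All 12 genes of telencephalic identity were detected, and their median percentile was 70.6. Of 18 genes of midbrain, hindbrain and spinal cord, 5 were detected (Barhl1, Wnt1, En2, Fgf8 and Lmx1b), a count that became 11 with the flag for a positive and significant signal, 10 with the limit from negative controls and 2 when every named probe had to be detected. En1, a midbrain factor, lay at 9.2 ± 2.4. Of 39 HOX genes, which pattern the hindbrain and spinal cord, 1 was detected. This was Hoxa9, with 59, 169, 55 and 53, which was not counted on all 4 arrays or by every probe.

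Transcription factors of the 23 families examined were detected for 189 of 384 genes (49.2%), below the share of all named genes. The pooled share depends on which families were listed, since single families ranged from 2.56% (HOX, 39 genes) to 100%. All members of the ID and NFI families were detected. The 4 ID genes, which hold back differentiation factors, lay between 94.2 (Id1) and 98.4 (Id2), and the 4 NFI genes, which act in gliogenesis, between 71.8 (Nfia, whose other probe at 42.9 was not detected) and 97.0 (Nfib). SOX genes were detected for 13 of 19 (68.4%, near the share of all named genes). Among them were Sox4 (95.8) and Sox11 (95.6) of neurons, Sox9 (91.2) of glia and Sox5 (97.9, with another probe at 42.3 that was not detected). The endothelial members Sox17 and Sox18 were not detected. DLX genes of the ventral telencephalon were detected for 5 of 6, and Dlx4 was not. KLF genes were detected for 14 of 17, AP-1 and ATF genes for 15 of 18, and the MEIS, PBX and TALE group for 10 of 11.

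Among other families with neural members, ZIC and GLI genes were detected for 6 of 8, HES and HEY genes for 5 of 9, POU genes for 7 of 14 and the proneural and neuronal bHLH genes for 14 of 36. Their shares were 75%, 55.6%, 50% and 38.9%, against 62.4% of all named genes. The PAX family was detected for 1 of 9 genes (Pax6), the GATA family for 1 of 6 (Gata5, 82.0 ± 0.35), the IRX family for 1 of 6 (Irx1) and the NKX family for 3 of 13 (Nkx2-1, Nkx2-2 and Nkx6-2). ETS genes were detected for 15 of 26 (57.7%, near the share of all named genes) and forkhead genes for 18 of 44 (40.9%). Foxl2, known from the ovary and eyelid, had net intensities of 17725, 20024.7, 9559 and 11114 (97.8 ± 0.38), and its other probe lay at 48.5 and was not detected. The nuclear receptors were detected for 31 of 49 (63.3%, near the share of all named genes). Nr2f1, a factor of cortical patterning, lay at 98.1 ± 0.18 and Thra, a thyroid hormone receptor, at 96.5.

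Receptors of the families examined, with sensory receptors of smell and taste left aside, were detected for 189 of 322 genes. The share of 58.7% lay below the 62.4% of all named genes. The latter includes the sensory receptors left aside here (4.05% and 6.21% detected) and would be higher without them, so the 2 shares rest on unlike sets. Among guidance receptors, 9 of 12 of the Robo, netrin and neuropilin group were detected. All 9 plexins, which bind semaphorins, were detected, from Plxna1 (74.4) to Plxnb2 (95.3), and 12 of 14 Eph receptors were. Dcc, the netrin receptor, lay at 98.5 ± 0.048 by 1 of 3 probes, and the others were not detected. All 4 Notch receptors were detected, as were 14 of 15 Frizzled and Wnt co-receptors and all 6 receptors of the gp130 and LIF family, through which gliogenic cytokines act. The dimmer probes of Notch1 (42.3) and Notch2 (41.4) were not detected.

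Glutamate receptors were detected for 4 of 6 AMPA and delta, 5 of 5 kainate, 5 of 7 NMDA and 7 of 8 metabotropic genes. The shares of AMPA and delta (66.7%) and NMDA genes (71.4%) were not far from the 62.4% of all named genes. Gria2, the subunit that sets the calcium permeability of AMPA receptors, had net intensities of 1189, 1599, 816 and 888 (84.7 ± 1.3). Grin1, the obligatory NMDA subunit, lay at 73.9 ± 2.1, and its other probe was not detected. The dimmer probes of the NMDA gene Grin2a (40.6) and of the kainate genes Grik2 (52.5) and Grik3 (41.7) were not detected either. GABA-A receptor genes were detected for 13 of 19 (68.4%, near the share of all named genes). Gabra3 lay at 88.6 ± 1.2 by 1 probe and at 35.7 by the other, which was not detected. Gabra6 of cerebellar granule cells was not detected. Receptors for amines and acetylcholine varied by family. Histamine receptors were detected for 3 of 3 genes and adrenergic receptors for 5 of 9 (55.6%, against 62.4% of all named genes). No dopamine receptor of 5 was well above background on any array, with Drd2 at 20.5, 38, 36 and 45. Serotonin receptors were detected for 3 of 14, nicotinic receptors for 4 of 16 and muscarinic receptors for 1 of 5, and the flag for a positive and significant signal gave 8, 8 and 4 for these last 3 families.

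Among growth factor receptors, Egfr lay at 83.2 ± 0.47 and Fgfr1 at 94.8 ± 0.51, which bind the mitogens of the growth medium. Erbb3 and Erbb4, receptors for neuregulins, were well above background on no array. Ntrk2, the receptor for BDNF, had 20923.6, 22881.9, 12146 and 8237 (97.9 ± 0.21). Of immune receptors, chemokine receptors were detected for 4 of 22 and Toll-like receptors for 3 of 12. The Toll-like count became 5 without replicate 2 or without replicate 4, where the flag was needed on only 2 of the 3 arrays left.

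Peptide receptors were detected for 21 of 40 genes (52.5%, against 62.4% of all named genes), and for 13 when every named probe had to be. Adcyap1r1, the receptor for the peptide PACAP, lay at 95.2 ± 0.22. Oprm1, the mu opioid receptor, had a probe at 96.0 ± 0.56 and another at 10.4 that was not detected, and Tacr2, a tachykinin receptor, had probes at 95.1 and 25.5. Ednrb, an endothelin receptor of glia, had 7771, 7976.5, 4105.5 and 3391. The kinin receptors, which the study treated with agonist and antagonist in other samples, were not detected. Bdkrb2, the B2 receptor, had net intensities of 17, 10, 18.5 and 26.5, and Bdkrb1, the B1 receptor, had 15, 12, 34 and 28, with the flag set on no array for either. A level under that limit was not detectable by these probes and is not shown to be absent.

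Transporters of 17 families were detected for 217 of 335 genes (64.8%), near the share of all named genes (62.4%). Slc1a3, the glutamate transporter of radial glia and astrocytes, had net intensities of 25641.5, 25930.7, 12175 and 8951 (98.1 ± 0.18). Slc1a2, the other main glutamate transporter of astrocytes, had 834, 1205, 361 and 415 (79.9 ± 1.9). Both transporters were well above background on all 4 arrays. Slc12a2, which brings chloride into neurons, lay at 91.8 ± 0.58, and Slc12a5, which carries it out, at 93.1 ± 0.83 by 1 of its 2 probes, the other lying at 39.0. In the SLC6 family, which takes up transmitters, 7 of 17 genes were detected. Slc6a3 and Slc6a4, the transporters for dopamine and serotonin, were well above background on no array.

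SLC1 carriers were detected for 6 of 7 genes, SLC4 carriers for 8 of 10 and SLC12 carriers for 7 of 9. SLC35 nucleotide sugar carriers were detected for 24 of 26, and SLC25 mitochondrial carriers for 36 of 47, with Slc25a4, an ADP/ATP carrier, at 99.4 ± 0.082. Sodium pump subunits were detected for 5 of 7, and Atp1a4 and Atp1b4 were not. Slc2a1, the glucose transporter of vessels and glia, lay at 91.9 ± 0.90, and Slc2a2, that of liver, at 9.4 ± 16.9 with the flag set on no array. Organic ion carriers of the SLC22 and SLCO families were detected for 14 of 38. Abcb1a and Abcb1b, the drug pumps of the blood-brain barrier, were not detected (44.2 ± 5.4 and 43.4). Aquaporins were detected for 5 of 11.

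**Figure D3:**
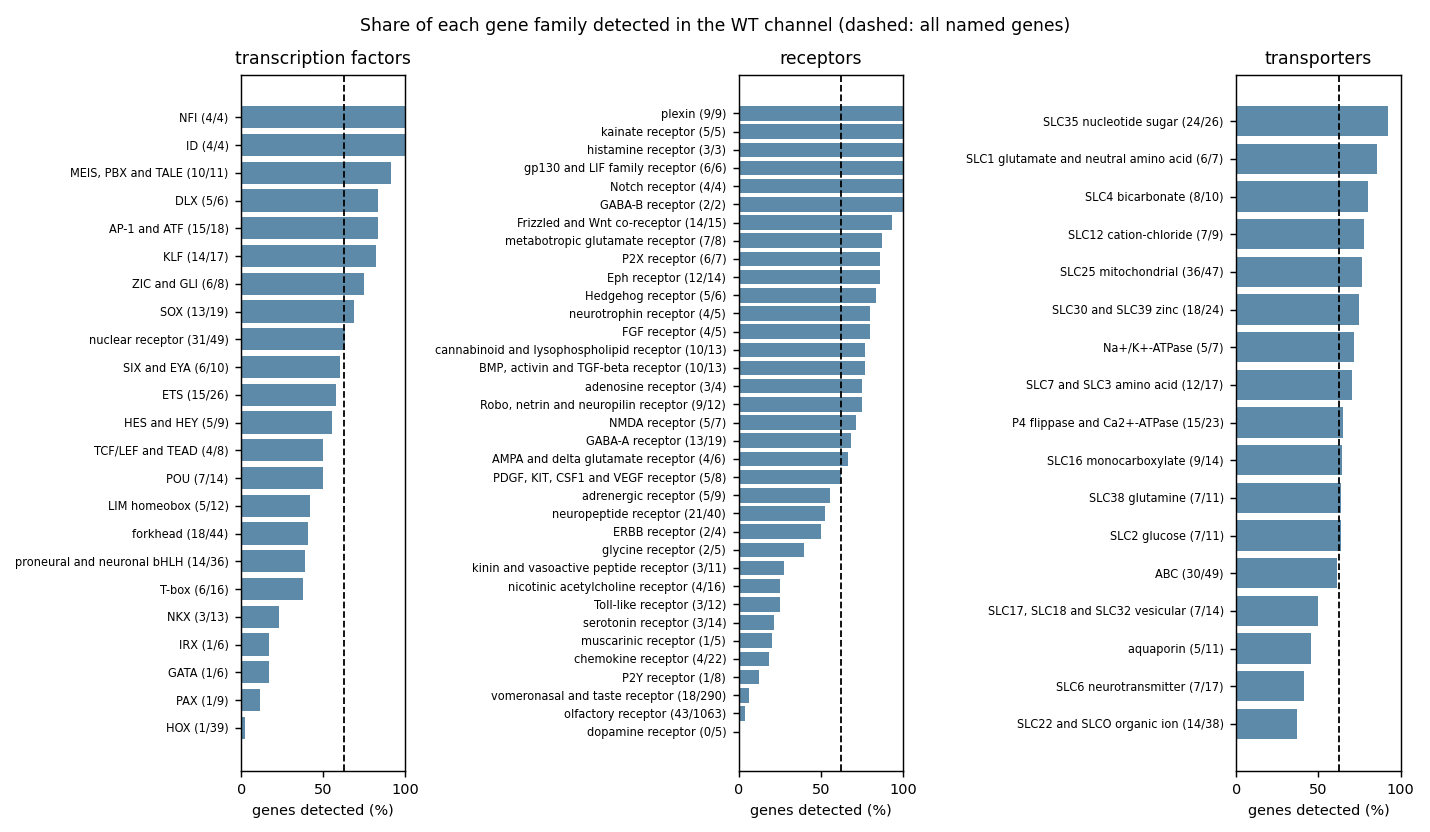
Share of genes detected on at least 3 of 4 arrays (horizontal axis, percent, from 0) in each family of transcription factors, receptors and transporters, with detected genes over genes with a named probe beside each name and the share of all named genes (62.4%) as a dashed line. The HOX, olfactory and dopamine receptor families lie near 0, and the ID, NFI, Notch and plexin families at 100.

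The 20 brightest named genes held cytoskeletal and ribosomal transcripts such as Actb, Actg1, Tubb2b, Rps14 and Rpl41. They also held Slc10a1, the bile acid transporter of liver cells, with net intensities of 207667, 238535, 47341.2 and 61020. Its other probe lay at 13.0 and was not detected. Pbld1 had a probe at 99.9 and another with net intensities of 2, 21, 29 and 39, and Ttc38 had 4 probes from 100.0 to 39.5. In all, 5512 named genes had several probes, and these disagreed on detection in 1353. Among the members with several probes, they disagreed in 101 of 355. Both counts compare the flag alone, so probes far apart in brightness can count as agreeing. Of the 20 brightest genes, Elk1 had 188051 and 131 on replicate 1 by its 2 probes, all detected. Kctd14 had 219317, 129.5 and 131 there by its 3 probes, also all detected. A gene was called when any of its probes was detected and its level is that of its brightest probe, and 11688 genes (56%) were detected when every named probe had to be.

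Some marker lists shifted to 1 side between replicates and others did not. After each array was centred on the median of its detected probes, 17 of 18 myelinating genes were higher on replicate 1 than on replicate 2, with a median log2 difference of 0.36. All 18 were higher on replicate 3 than on replicate 4, with a median of 0.59. Proliferating genes were higher on replicate 1 for 16 of 16 and on replicate 3 for 15 of 16 (0.23 and 0.42), and astrocyte genes for 21 and 20 of 24 (0.16 and 0.25). Pan-neuronal genes went the other way between the red arrays, as 3 of 23 were higher on replicate 1 (median −0.20), and 8 of 23 were higher on replicate 3 (−0.05). Of dorsal glutamatergic genes, 2 and 5 of 16 were higher (−0.23 and −0.09). Of radial glial genes 14 and 18 of 21 were higher, of ependymal genes 8 and 7 of 10, of neural crest genes 5 and 5 of 6, and of pluripotent cell genes 1 and 0 of 6. Further lists differed between the pairs. Of GABAergic genes, 16 of 21 were higher on replicate 1 and 6 on replicate 3, and of pericyte, smooth muscle and fibroblast genes 8 and 2 of 10 were. Of oligodendrocyte precursor genes 7 and 13 of 14 were higher, of intermediate progenitor genes 8 and 11 of 16, and of microglial genes 2 and 5 of 9. Among all 12569 genes well above background on 4 arrays, 6975 were higher on replicate 1 (median 0.02) and 8114 on replicate 3 (median 0.08). No test was made with 1 array on each side.

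Mog differed by 0.65 and 0.45 between the 2 pairs, Mobp by 0.55 and 0.80, and Mki67 by 0.28 and 0.61. Neurod6 differed by −0.47 and −0.11. For comparison, the median size of a difference over the 12569 genes was 0.12 in the red pair and 0.16 in the green pair, and no gene differed by over 1 in both pairs.

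Transcripts of the sex chromosomes set replicate 3 apart. Xist, the RNA that coats the inactive X chromosome, had net intensities of 921, 1276.5, 50 and 698, so that it was well above background on all arrays but that of replicate 3. Eif2s3y, a Y-linked translation factor, had 38, 23, 2124 and 20.5, and replicate 3 alone was well above background. Ddx3y, a Y-linked RNA helicase, had 15.5, 163, 629 and 20, with the flag set on replicates 2 and 3. Uty was so on replicate 3 alone (9, 0, 68 and 19.5), and Kdm5d on none. The X-linked partners Ddx3x (94.2 ± 0.32) and Eif2s3x (84.5 ± 1.8) were detected on all 4 arrays. On replicate 3, the brighter probe of Eif2s3x was at its lowest (1527, 1591.5, 582 and 896) and the dimmer one at its highest (365, 323, 1235.5 and 162). After centring, Kdm6a and the brighter Eif2s3x probe differed by −0.73 and −0.67 on the log2 scale between replicates 3 and 4, and all 4 of the sex-linked genes well above background on every array were lower on replicate 3. Without replicate 3, 13383 named genes were detected on at least 2 of 3 arrays. The part of sex in any other value was not tested.

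**Figure D4:**
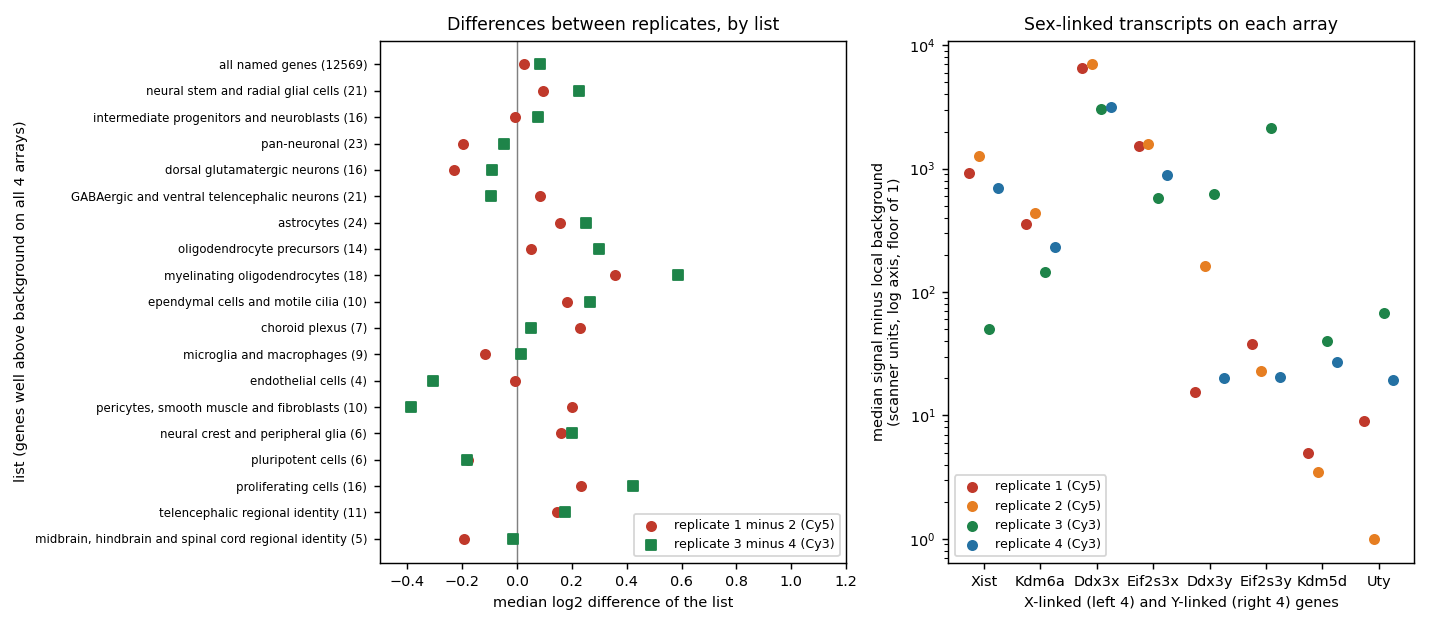
Left, the median log2 difference of each marker list between the arrays of a dye (circles, replicate 1 minus 2; squares, replicate 3 minus 4), with the number of genes well above background on all 4 arrays. Myelinating and proliferating genes lie to the right of all named genes in both pairs. Right, net intensity (log axis, with values under 1 drawn at 1) of X-linked and Y-linked genes on each array. Replicate 3 has the lowest Xist and the highest Ddx3y, Eif2s3y and Uty, and Kdm5d was well above background on no array.

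The promoters of detected genes were examined for what they share. A window of 300 bases, from 250 before to 50 after the annotated start, was given by RefSeq (GRCm38.p6) for 16552 of the named genes. Detected genes had a median of 21 CG dinucleotides in it (10435 genes) and genes not detected had 4 (6117 genes). Without the olfactory, vomeronasal and taste receptors, these medians were 21 and 5. Split by mean percentile into 10 groups of like size, the median rose from 3 in the dimmest group to 22 in the brightest 4 groups. The letters GGGCGG, on either strand, occurred in 63.9% of promoters of detected genes and 22.7% of the others, and TATAAA, on either strand, in 7.28% and 21.8%. CCAAT, on either strand, occurred in 38.7% and 38.8%. Over all 27025 promoters of the table, these shares were 35.9%, 14.2% and 37.9%. These are descriptions across genes, and how base composition acts on the probes themselves was not tested.

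The lists differed in this respect. The proliferating genes had a median of 25 CG dinucleotides (16 promoters) and the intermediate progenitor genes 21 (15 promoters). The midbrain, hindbrain and spinal cord genes, of which most were not detected, had 23 (13 promoters), whereas the median was 6 for astrocyte genes (20 promoters), 6 for myelinating genes (13 promoters) and 5 for microglial genes (15 promoters). The sequences of 4 promoters are shown to let this range be seen, 5′ to 3′ on the strand of the gene, with each CG in capitals. Sox2 (chr3:34649745-34650044, plus strand, 27 CG) and Dlx2 (chr2:71546705-71547004, minus strand, 29 CG) stand for detected progenitor and ventral factors. Gfap (chr11:102897151-102897450, minus strand, 3 CG) stands for a detected gene with few CG, and Hbb-bs (chr7:103827879-103828178, minus strand, 2 CG) for one that was not detected.
Sox2: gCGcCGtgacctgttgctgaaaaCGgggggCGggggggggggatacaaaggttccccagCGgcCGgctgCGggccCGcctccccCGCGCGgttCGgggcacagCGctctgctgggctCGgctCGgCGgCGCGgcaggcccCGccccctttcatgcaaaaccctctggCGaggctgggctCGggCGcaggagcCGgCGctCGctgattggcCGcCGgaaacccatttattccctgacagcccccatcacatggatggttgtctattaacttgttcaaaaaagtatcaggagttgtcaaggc
Dlx2: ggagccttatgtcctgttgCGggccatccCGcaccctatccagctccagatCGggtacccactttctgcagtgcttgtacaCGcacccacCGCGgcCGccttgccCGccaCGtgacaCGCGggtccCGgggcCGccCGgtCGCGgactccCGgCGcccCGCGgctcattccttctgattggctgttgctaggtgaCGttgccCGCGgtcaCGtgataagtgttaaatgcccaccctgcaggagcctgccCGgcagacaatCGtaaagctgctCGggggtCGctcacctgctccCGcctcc
Gfap: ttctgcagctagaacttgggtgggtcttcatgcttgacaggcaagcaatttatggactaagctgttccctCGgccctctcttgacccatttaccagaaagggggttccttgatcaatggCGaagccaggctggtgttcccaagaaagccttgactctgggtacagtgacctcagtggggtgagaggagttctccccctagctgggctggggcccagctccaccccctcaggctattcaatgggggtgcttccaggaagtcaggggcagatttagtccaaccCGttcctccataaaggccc
Hbb-bs: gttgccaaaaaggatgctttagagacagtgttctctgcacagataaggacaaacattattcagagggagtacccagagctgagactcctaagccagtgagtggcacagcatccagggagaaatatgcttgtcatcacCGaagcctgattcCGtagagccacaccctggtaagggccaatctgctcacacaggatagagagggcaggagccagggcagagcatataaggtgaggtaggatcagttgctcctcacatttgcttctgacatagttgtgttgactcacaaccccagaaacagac

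**Figure D5:**
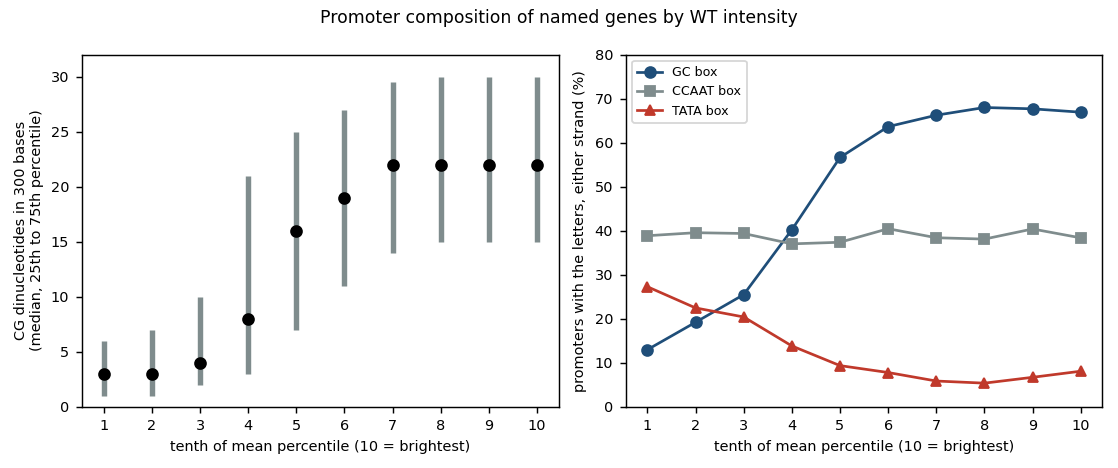
Promoter composition of 16552 named genes in 10 groups of like size ordered by the mean percentile of WT intensity (horizontal axis, 10 is the brightest). Left, CG dinucleotides in 300 bases (points, median; bars, 25th to 75th percentile), with medians from 3 to 22; right, percent of promoters with the GC box, CCAAT box or TATA box letters on either strand, from 12.9% to 66.9% for the GC box and from 27.2% to 8.03% for the TATA box between the dimmest and the brightest group.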

How the data were processed

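Total RNA of 4 WT neurosphere replicates (100 ng each) was labelled with Cy5 or Cy3 and hybridised on 2-color arrays, all on 1 slide. For every array the authors deposited unprocessed scanner tables, in which each spot has a median intensity and a median local background intensity per channel, not normalized, and per the file headers these came from Feature Extraction 11.0.1.1 (the methods name another version). From these values net intensities were computed for non-control spots of the WT channel, spots of a probe were averaged, and probes were ranked to percentiles within each array, with no normalization between arrays or dyes. Probes were named through their RefSeq accession in a table of GRCm38.p6, used for names only: of 55681 probes, 29150 had such an accession and 27509 were matched to 20887 genes. Of the 28172 unnamed probes, 8318 were detected.

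The level of a gene is that of its probe with the highest mean percentile, and a gene is detected when any of its probes is. The 21 marker lists and 75 families, whose members were counted, were chosen with earlier results of these data known. The first 4 genes of each marker list, up to 5 of the brightest and 5 of the undetected members of each list or family, the 20 brightest named genes, the 10 that differed most within both dye pairs and the kinin receptors were eligible to be named. Others, such as the sex-linked genes and the probes that disagree, were named after their values were seen. No contrast was made and no p-value was computed. For log2 differences, net intensities were floored at 1 and each array was centred. The other channel, the 8 arrays of drug-treated cells and the log ratios were not used. The scripts (Python 3.11.15, pandas 2.3.3, limma 3.58.1 for normexp) were tested on simulated data. Alternatives are given in the closing section. Some genes counted in the lists are not reported here by name.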

Additional observations from a re-analysis of the deposited data

Results flagged for a closer look

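Of 107 values examined over the 4 arrays (2 array measures, the medians of 21 lists and the first 4 genes of each list), 6 had 1 array far from the others in relation to the range of all 4. Chance flags about 1 in 20 groups, so about as many would be marked by chance. The share of probes well above background was 57.0% on replicate 1 and between 46.4% and 47.1% on the others. The median percentile of the ependymal list was 68.6 on replicate 1 and between 66.1 and 66.4 on the others, and that of the sex-linked list was 82.0 on replicate 3 and at most 73.8 elsewhere. Gad1, a GABA-synthesizing enzyme, lay at 91.2 on replicate 3 and at 92.6 to 92.8 on the others. Emx1, a dorsal homeobox factor, lay at 69.6 on replicate 3 and at 63.4 to 64.4 on the others. Xist lay at 53.0 on replicate 3 and between 80.9 and 84.2 on the others.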

How the results depend on the processing

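The count of 13041 detected genes ranged from 11688 to 15537 over the 11 alternatives, and that of 780 detected members of 1304 from 679 to 977. Both stayed within 1.5 times, but 62.4% and 59.8% were detected to begin with, which left little room for a larger rise. Lists with most members detected had no such room either, so this limit could show a rise only in lists with fewer detected. The lowest value came from the rule that every named probe be detected, chosen after seeing the data, and the highest from the flag for a positive and significant signal. Leaving out each replicate gave 13067 to 13519 genes, with the flag then needed on at least 2 of the 3 arrays left. Any probe that passes on 3 of 4 arrays also passes this looser rule, so these counts could not fall. Of 96 lists and families, this flag moved 23 by over 1.5 times and the limit from negative controls 19, among them endothelial genes (4 to 8 and 7), olfactory receptors (43 to 191 and 145) and genes of other tissues (4 to 9 and 7). The last count fell to 2 when all 4 arrays were needed or uneven and outlier spots were left out. The rule that every named probe be detected moved 10 of the 96 lists and families by over 1.5 times. Leaving out 1 replicate moved only PAX genes (1 to 2 without replicate 3 or 4), muscarinic receptors (the same) and Toll-like receptors. Over 725 named genes, 207 percentiles moved by more than 1 SD with the processed signal and 175 with the median over probes. None did under normexp with an offset of 50. It was applied to the same net intensities and keeps their order within an array, so percentiles could hardly move and no conclusion is drawn from it. No paired analysis was possible because no groups were compared. Signal near the background limits what can be said of genes not detected.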
